A study of Rattus norvegicus with 12 samples.

Results

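Ribosome biogenesis and nucleolar genes were followed across 3 kinds of cultured rat Müller cells, the glia that span the retina. The set was a list of 38 genes chosen by name for their part in making ribosomes. Of these, 35 were among the 17315 genes of the count files, 34 under the listed symbol and Utp4 under the older symbol Cirh1a. Rrp12, Tsr1 and Rrp1b were not analysed here. A filter on low counts left 33 of the 35, among 11321 genes tested. The other two, Heatr1 and Ebna1bp2, had almost no counts anywhere, and no level was read from them: Heatr1 had 5 counts over the rMC-1 libraries, 3 over the SIRMu-1 libraries and 1 over the primary libraries, and Ebna1bp2 had 2, 3 and 1 in the same order.

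All cells came from Sprague-Dawley rats. The rMC-1 group held 3 libraries of a line from adult retina made immortal by SV40 large T antigen, at passages 23 to 26, in medium with 10% serum and no antibiotic. The SIRMu-1 group held 5 libraries of a line that arose spontaneously from cultures of pups of postnatal day 2 to 4, at passages 6 to 20, in 20% serum. Replicates 3 and 5 of SIRMu-1 were grown with the drugs gentamicin, at 87 mg/L, and amphotericin B, at 2.2 mg/L, and the other 3 without. Both lines were compared with 4 libraries of primary cultures from pups of the same age, at passage 3 or 4, in 20% serum with both drugs. Every medium held 25 mM glucose and 2 mM glutamine. Each line is a single line, so its libraries show the spread between cultures of that line, and the labels do not say which primary cultures shared an animal. The p-values therefore rest on a spread among libraries that may be partly technical.

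Ribosomes are built in the nucleolus. RNA polymerase I transcribes a long precursor rRNA there, small nucleolar ribonucleoproteins (snoRNPs) modify and help to cut it, and separate sets of factors then shape the small and the large subunit before export to the cytoplasm. The process takes a large share of a growing cell's energy, and many of its genes are known targets of the transcription factor MYC, which with its partner MAX binds the sequence CACGTG.

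RefSeq promoter windows on assembly GRCr8, from 250 bases before to 50 bases after the annotated start, were held for 31 of the 35 genes. Wdr43, Dcaf13, Bop1 and Rrs1 had no entry. The letters CACGTG, which read the same on both strands, stood in 11 of the 31 windows (35.5%), against 22 of 98 windows of other ribosome biogenesis genes (22.4%), 1 of 17 windows of division genes (5.88%), 788 of 8590 windows of genes tested (9.17%) and 2148 of all 33469 windows (6.42%). The 11 were Ddx18, Ebna1bp2, Fbl, Gnl3, Mybbp1a, Nle1, Nop2, Pes1, Utp20, Utp4 and Wdr75. A match is a run of letters and not a measured binding site. The stretches below run from 80 bases before to 30 bases after the start, 5′ to 3′ on the strand of the gene, with CACGTG in capitals. The first 7 are the stretches that hold it, and Npm1 and Rrn3 are shown for contrast because they moved in different ways and hold none.
Fbl: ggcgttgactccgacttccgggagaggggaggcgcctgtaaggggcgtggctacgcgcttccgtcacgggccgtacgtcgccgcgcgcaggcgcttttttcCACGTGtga
Utp4: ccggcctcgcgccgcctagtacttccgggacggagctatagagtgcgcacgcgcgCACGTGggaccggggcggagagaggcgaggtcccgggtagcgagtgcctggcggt
Mybbp1a: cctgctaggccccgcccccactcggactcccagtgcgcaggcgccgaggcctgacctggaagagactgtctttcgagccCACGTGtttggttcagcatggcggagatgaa
Gnl3: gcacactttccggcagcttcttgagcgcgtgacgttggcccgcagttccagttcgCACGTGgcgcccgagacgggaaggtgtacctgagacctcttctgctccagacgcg
Nle1: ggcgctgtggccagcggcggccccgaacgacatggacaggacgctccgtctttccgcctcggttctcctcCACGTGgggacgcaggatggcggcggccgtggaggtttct
Pes1: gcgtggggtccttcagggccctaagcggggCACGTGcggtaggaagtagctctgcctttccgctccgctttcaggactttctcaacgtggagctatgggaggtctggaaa
Ddx18: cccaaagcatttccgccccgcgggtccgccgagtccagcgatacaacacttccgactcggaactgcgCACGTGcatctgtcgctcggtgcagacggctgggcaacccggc
Npm1: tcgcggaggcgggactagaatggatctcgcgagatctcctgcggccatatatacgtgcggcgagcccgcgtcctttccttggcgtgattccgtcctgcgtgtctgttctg
Rrn3: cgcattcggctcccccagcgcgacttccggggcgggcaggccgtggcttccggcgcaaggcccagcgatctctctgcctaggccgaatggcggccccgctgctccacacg

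The stretches lie in GRCr8 as follows. Fbl is at chr1:92597327-92597436, plus strand. Utp4 is at chr19:51702161-51702270, plus strand. Mybbp1a is at chr10:57555378-57555487, plus strand. Gnl3 is at chr16:6219753-6219862, minus strand. Nle1 is at chr10:68340151-68340260, minus strand. Pes1 is at chr14:83074266-83074375, plus strand. Ddx18 is at chr13:35295943-35296052, minus strand. Npm1 is at chr10:18255712-18255821, minus strand. Rrn3 is at chr10:2672266-2672375, minus strand. Counting the first transcribed base as 1, the motif began at position 22 in Fbl, -25 in Utp4 and Gnl3, -10 in Nle1, -50 in Pes1 and -13 in Ddx18. Mybbp1a had it at -1 and again at -156, outside the printed stretch. The 31 windows were spread over 15 chromosomes, with at most 5 on chromosome 10 (Mybbp1a, Nle1, Npm1, Rrn3 and Ubtf).

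The libraries had 27351014 to 38125630 counts in genes in rMC-1, 26349346 to 36730443 in SIRMu-1 and 22582345 to 29812705 in primary cultures, so the tested genes of the set were well covered. Levels are given as CPM, counts scaled to the counts in genes of a library after edgeR's TMM factors, which were 1.255 to 1.284 in rMC-1 and 0.839 to 1.006 in the other libraries. CPM is not per length and was compared only within a gene. The summed CPM of 10 Müller glia markers was 1462 to 1546 in rMC-1, with Aqp4 and Car2 at 0, and 3001 to 4147 in SIRMu-1, with Sox2, Aqp4, Kcnj10 and Car2 at 0, against 5712 to 7552 in primary cultures, where none was at 0 in every library. Aqp4 had only 2 counts over all libraries and Kcnj10 only 22. Both were thus near the floor in primary cultures too, and their zeros show no loss in a line. Vim, which other cultured cells also express, made up most of this sum, with a mean of 1367 CPM in rMC-1 and 3540 in SIRMu-1, against 6207 in primary cultures. The other markers did not all follow it: Sox9 averaged 0.0358 CPM in rMC-1 and 71.6 in SIRMu-1, against 52.2 in primary cultures, and Rlbp1 stayed below 1 CPM on average in each group, at 0.91 in rMC-1 and 0.156 in SIRMu-1, against 0.0654 in primary cultures. The summed CPM of 12 fibroblast and matrix markers was 6191 to 8405 in rMC-1 and 8.203e+04 to 1.074e+05 in SIRMu-1, against 7.905e+04 to 2.029e+05 in primary cultures. Col1a1 (11052669 counts over all libraries) and Fn1 (9239309) weighed most in this sum. In SIRMu-1 against primary cultures, 4 of the 12 were called lower and 1 higher (24.4% and 21.7% of all genes). Their log2 fold changes there ran from -14.09 to 1.003. In rMC-1 against primary cultures all 12 were called lower (38.9% of all genes). Endothelial markers summed to 0.412 to 0.826 CPM in rMC-1 and 24.9 to 45.2 in SIRMu-1, against 1.95 to 11.1 in primary cultures. Most of the SIRMu-1 sum was Tek, at a mean of 32.02 CPM, while Kdr averaged 0.00949 CPM in rMC-1 and 0.00711 in SIRMu-1, against 3.74 in primary cultures. Microglial markers summed to 0.124 to 0.456 CPM in rMC-1 and 0.187 to 3.78 in SIRMu-1, with Aif1, Cx3cr1 and C1qa at 0 in both, against 2.15 to 7.85 in primary cultures. Neuronal markers summed to at most 1.93 CPM in any library. The part of these differences in the results on ribosome biogenesis was not tested.

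Most of the set stood higher in rMC-1 than it did in primary cultures. Of 33 genes, 26 rose, 1 (Rrn3) fell and the other 6 missed the threshold, set at an adjusted p under 0.05 (edgeR's quasi-likelihood test, Benjamini-Hochberg adjustment over all genes tested), and the median log2 fold change was 0.77. Of all genes tested, 31.9% were called higher and 38.9% lower in the same comparison (70.8% in either direction), with a median of -0.15. The rMC-1 libraries lay wholly above the primary libraries for 24 genes of the set (32.7% of all genes) and wholly below for 1 (38.2%), 12 rose at least 2-fold (18% of all genes) and 0 fell as far (27.9%). At an unadjusted p under 0.05, 27 of the 33 differed (73.4% of all genes). Scaling by library totals alone gave 31 higher and 1 lower in the set, and 44.8% higher and 27.6% lower of all genes.

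In SIRMu-1 against primary cultures fewer genes of the set passed. There 18 genes rose, 0 fell and 15 missed the threshold, and the median was 0.39, while 21.7% of all genes were called higher and 24.4% lower (46.1% in either direction), at a median of -0.02. The SIRMu-1 libraries lay wholly above the primary libraries for 17 genes (17.2% of all genes) and wholly below for 0 (18.1%), 2 (Npm1 and Fbl) rose at least 2-fold (6.83% of all genes), and 0 fell as far (15.5%). At an unadjusted p under 0.05, 22 genes of the set differed between SIRMu-1 and primary cultures (53.4% of all genes). DESeq2 also called 18 higher (22% of all genes) and 0 lower (27.1%).

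Set directly against each other, the lines differed in 19 of the 33 genes, a smaller share than the 63.2% of all genes. Higher in rMC-1 than in SIRMu-1 were 16, lower were 3 (Rrn3, Nop14 and Wdr75), and 14 missed the threshold, at a median of 0.32. Of all genes tested, 30.5% were called higher and 32.7% lower in rMC-1 (63.2% in either direction), with a median of -0.03. The rMC-1 libraries lay wholly above the SIRMu-1 libraries for 13 genes (31% of all genes) and wholly below for 2 (32%), 4 were at least 2-fold higher in rMC-1 (16.2% of all genes) and 0 as far lower (20.1%). At an unadjusted p under 0.05, 20 differed (66.7% of all genes). Scaling by library totals alone gave 23 higher and 2 lower in the set, and 46.2% higher and 20.5% lower of all genes. Both comparisons with primary cultures share the same 4 primary libraries. Bulk RNA was measured, so a different share of cells of a kind and a different amount of RNA per cell cannot be told apart. Serum and donor age set rMC-1 apart, while SIRMu-1 and the primary cultures shared 20% serum and pup donors. Passage and immortalization differed between SIRMu-1 and the primary cultures, and also between rMC-1 and each of these groups. The drugs were absent in rMC-1, present in every primary culture and varied within SIRMu-1, where passage varied too. In each comparison, the factors that changed together with the group cannot be told apart either.

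**Figure D1:**
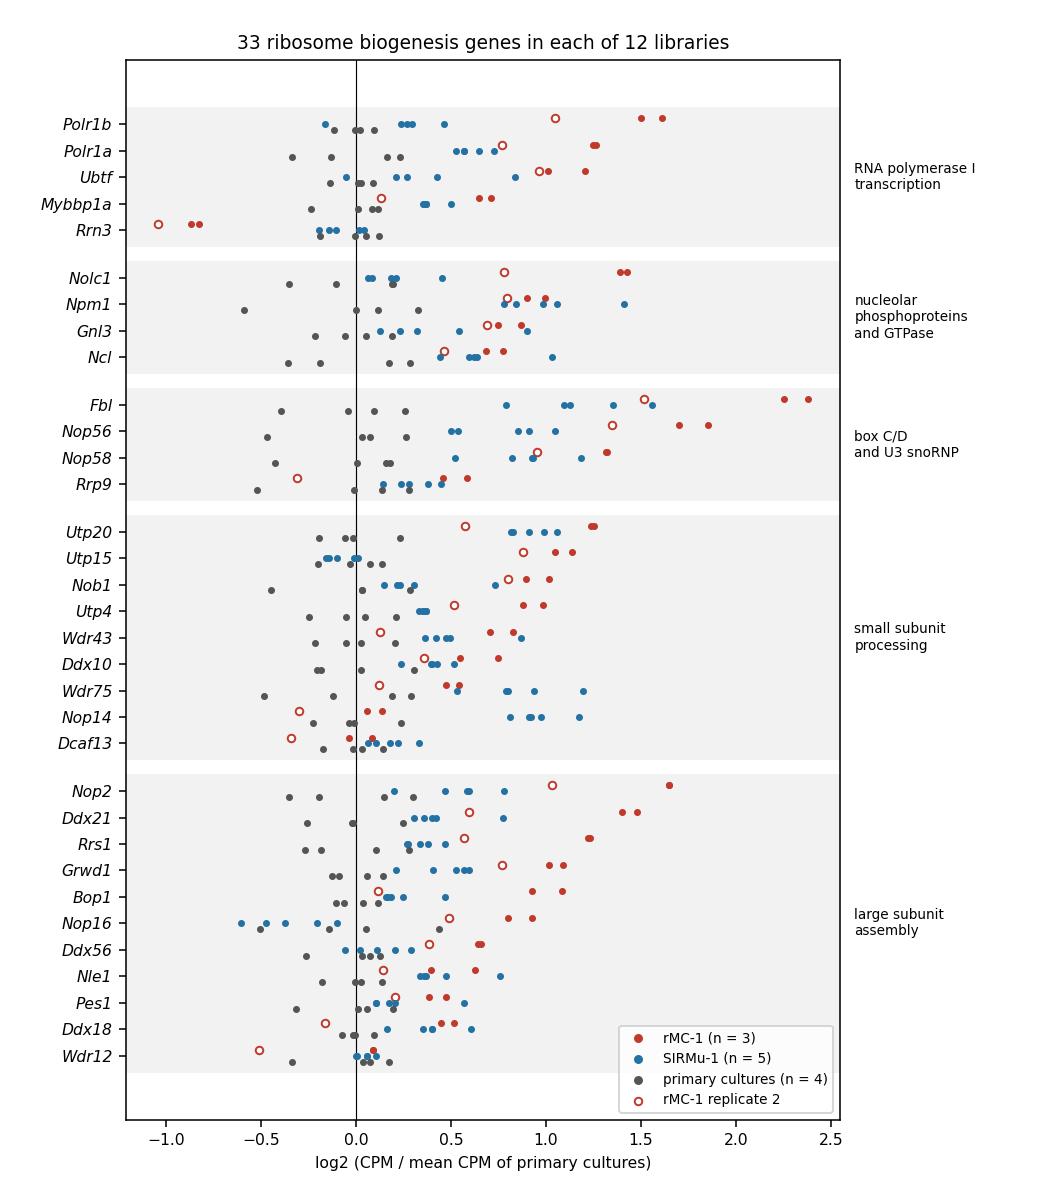
Level of each of the 33 tested genes in each of the 12 libraries, as log2 of its CPM over the mean CPM of the primary cultures, grouped by role. Red points are rMC-1 (replicate 2 as an open circle), blue points SIRMu-1 and grey points primary cultures. Rrn3 is the one gene with every rMC-1 point left of every primary point.

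Leaving out 1 library at a time changed a call in at least 1 comparison for 19 of the 33 genes, with a call lost for 10 and gained for 14. How often calls changed over all genes tested was not counted. By comparison, calls changed for 5 genes in rMC-1 against primary cultures, 11 in SIRMu-1 against primary cultures and 8 between the lines. In rMC-1 against primary cultures, 24 of the 26 genes stayed called without any 1 of the 12 libraries. Pes1 lost its call when any 1 of 7 libraries was left out (rMC-1 replicate 3, SIRMu-1 replicates 1, 3 and 4, and primary replicates 1, 2 and 4; edgeR adjusted p up to 0.106), and Nle1 when any 1 of 4 was (rMC-1 replicate 1, and primary replicates 1, 2 and 4; up to 0.0952). In SIRMu-1 against primary cultures, 12 of 18 stayed called throughout. The calls of Mybbp1a, Gnl3, Utp4, Ddx10, Nop2 and Ddx18 were all lost without primary replicate 2 (adjusted p up to 0.0939 over all omissions), which left 12 genes called higher (19.4% of all genes) and Nop16 called lower (21.8%). Without primary replicate 1, 14 genes were called higher (19.4% of all genes), and without SIRMu-1 replicate 5, also 14 (20.1%). Gained there without 1 library were Ddx21, Nob1, Rrs1 and Ubtf as higher. Between the lines, 15 of 16 higher genes stayed called throughout, and Bop1 lost its call without rMC-1 replicate 1 or 3 (up to 0.0769). Part of each file name is a code, and what it stands for is not stated in the labels. One code covers rMC-1 replicates 1 and 2, another SIRMu-1 replicates 1 to 3, another SIRMu-1 replicates 4 and 5, and another primary replicates 1 and 2. When libraries sharing a code were added up, 27 genes rose in rMC-1 (30.6% of all genes) and 10 in SIRMu-1 (12.3% of all genes, and 21.7% with the libraries apart), each relative to primary cultures.

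The RNA polymerase I group was the one with opposite movements in rMC-1. Polr1a and Polr1b encode the 2 largest subunits of the enzyme. Polr1b had 47.9, 35.0 and 51.7 CPM in rMC-1 and 20.0, 20.8, 15.1, 20.4 and 23.3 CPM in SIRMu-1, against 17.2, 18.1, 16.9 and 15.6 CPM in primary cultures. All rMC-1 libraries lay above all others, while SIRMu-1 and primary libraries overlapped. The log2 fold change was 1.41 ± 0.16 (SE) in rMC-1 (edgeR adjusted p = 1.26e-05) and 0.24 ± 0.14 in SIRMu-1 (adjusted p = 0.201), each against primary cultures. Polr1a had 103.6, 74.4 and 105.0 CPM in rMC-1 and 64.8, 64.8, 62.8, 68.5 and 72.3 CPM in SIRMu-1, against 34.6, 39.9, 49.0 and 51.2 CPM in primary cultures. Its 3 groups did not overlap and ran in that order, with log2 fold changes of 1.11 ± 0.15 in rMC-1 and 0.61 ± 0.14 in SIRMu-1 against primary cultures, and of 0.50 ± 0.15 between the lines (edgeR adjusted p = 0.0103).

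Rrn3, which encodes the factor TIF-IA that brings RNA polymerase I to the rDNA promoter, went the other way. It had 32.6, 28.1 and 31.7 CPM in rMC-1 and 58.6, 59.5, 53.7, 50.6 and 52.5 CPM in SIRMu-1, against 50.8, 62.8, 60.1 and 57.6 CPM in primary cultures. Every rMC-1 library lay below every other library, and SIRMu-1 overlapped the primary cultures. The log2 fold change was -0.91 ± 0.11 in rMC-1 against primary cultures (edgeR adjusted p = 1.48e-05), -0.07 ± 0.09 in SIRMu-1 against primary cultures (adjusted p = 0.538) and -0.84 ± 0.10 in rMC-1 against SIRMu-1 (adjusted p = 2.95e-05). Ubtf, whose product UBF keeps rDNA chromatin open, averaged 239 ± 21.8 CPM in rMC-1 (SD, n = 3) and 147 ± 35.3 CPM in SIRMu-1 (SD, n = 5), against 114 ± 7.4 CPM in primary cultures (SD, n = 4). It rose by 1.06 ± 0.17 in rMC-1 and did not pass in SIRMu-1 (0.37 ± 0.15, edgeR adjusted p = 0.0697). Mybbp1a, a nucleolar protein that binds RNA polymerase I and was named for binding MYB, rose by 0.52 ± 0.14 in rMC-1 and 0.39 ± 0.12 in SIRMu-1.

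The abundant nucleolar phosphoproteins did not follow one pattern. Nucleolin (Ncl) and nucleophosmin (Npm1), which bind rRNA precursors and histones, were higher in both lines. Ncl had 627, 538 and 666 CPM in rMC-1 and 601, 530, 607, 588 and 797 CPM in SIRMu-1, against 342, 304, 474 and 440 CPM in primary cultures. Npm1 had 531, 492.8 and 565 CPM in rMC-1 and 509, 488, 561, 592 and 755 CPM in SIRMu-1, against 284, 189, 356 and 307 CPM in primary cultures. For both genes every library of either line lay above every primary library, and the lines overlapped each other. Relative to primary cultures Ncl rose by 0.65 ± 0.18 in rMC-1 and 0.68 ± 0.16 in SIRMu-1, and Npm1 rose by 0.90 ± 0.20 in rMC-1 and 1.03 ± 0.18 in SIRMu-1 (edgeR adjusted p 0.00667, 0.00495, 0.00186 and 0.000895). Between the lines the log2 differences were -0.03 ± 0.17 for Ncl and -0.13 ± 0.20 for Npm1 (adjusted p = 0.884 and 0.574), which does not show that the levels are alike. Npm1 is known for processed pseudogenes, and the files list multimapping reads apart from the gene counts, so its counts are uncertain.

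Nolc1, the chaperone Nopp140 that shuttles between nucleolus and Cajal bodies, was higher in rMC-1. It had 340, 217 and 331 CPM in rMC-1 and 132, 134, 144, 146 and 173 CPM in SIRMu-1, against 117, 99.1, 144 and 145 CPM in primary cultures. The rMC-1 libraries lay above all others, and the SIRMu-1 and primary libraries overlapped. It rose by 1.23 ± 0.18 in rMC-1 against primary cultures and by 1.02 ± 0.17 against SIRMu-1 (edgeR adjusted p = 8.5e-05 and 0.00028), and did not pass in SIRMu-1 against primary cultures (0.21 ± 0.16, adjusted p = 0.311). Gnl3, the nucleolar GTPase nucleostemin, rose by 0.77 ± 0.17 in rMC-1 and 0.45 ± 0.15 in SIRMu-1, with SIRMu-1 and primary libraries overlapping.

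The box C/D and U3 snoRNP genes, whose particles methylate rRNA and help to cut it, had the highest group medians, at 1.43 in rMC-1 and 0.84 in SIRMu-1, and 3 of 4 rose in each line (31.9% of all genes in rMC-1 and 21.7% in SIRMu-1). Fibrillarin (Fbl), the methyltransferase, had 163, 90.0 and 150 CPM in rMC-1 and 68.8, 54.3, 67.1, 80.4 and 92.7 CPM in SIRMu-1, against 33.6, 23.95, 37.7 and 30.5 CPM in primary cultures. Every library of either line lay above every primary library, and rMC-1 replicate 2 lay within the range of SIRMu-1. The log2 fold changes were 2.10 ± 0.23 in rMC-1 and 1.21 ± 0.21 in SIRMu-1 against primary cultures (edgeR adjusted p = 9.65e-06 and 0.000748) and 0.89 ± 0.22 between the lines (adjusted p = 0.0036). Fbl had the highest fold change of the 33 genes in both comparisons with primary cultures. Of its partner scaffold genes, Nop56 was up by 1.65 ± 0.19 in rMC-1 and 0.79 ± 0.17 in SIRMu-1, and Nop58 was up by 1.21 ± 0.18 in rMC-1 and 0.89 ± 0.16 in SIRMu-1. For Nop56 the 3 groups did not overlap.

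Rrp9, a U3 snoRNP protein that works at an early cleavage of the precursor, did not pass in either line. It had 40.9, 21.9 and 37.4 CPM in rMC-1 and 37.1, 33.04, 32.1, 35.4 and 30.01 CPM in SIRMu-1, against 27.1, 18.9, 29.9 and 32.97 CPM in primary cultures. All 3 groups overlapped. The log2 fold changes were 0.30 ± 0.22 in rMC-1 and 0.30 ± 0.19 in SIRMu-1 (edgeR adjusted p = 0.238 and 0.224), and without rMC-1 replicate 2 the value in rMC-1 was 0.61 ± 0.18 (adjusted p = 0.0129).

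**Figure D2:**
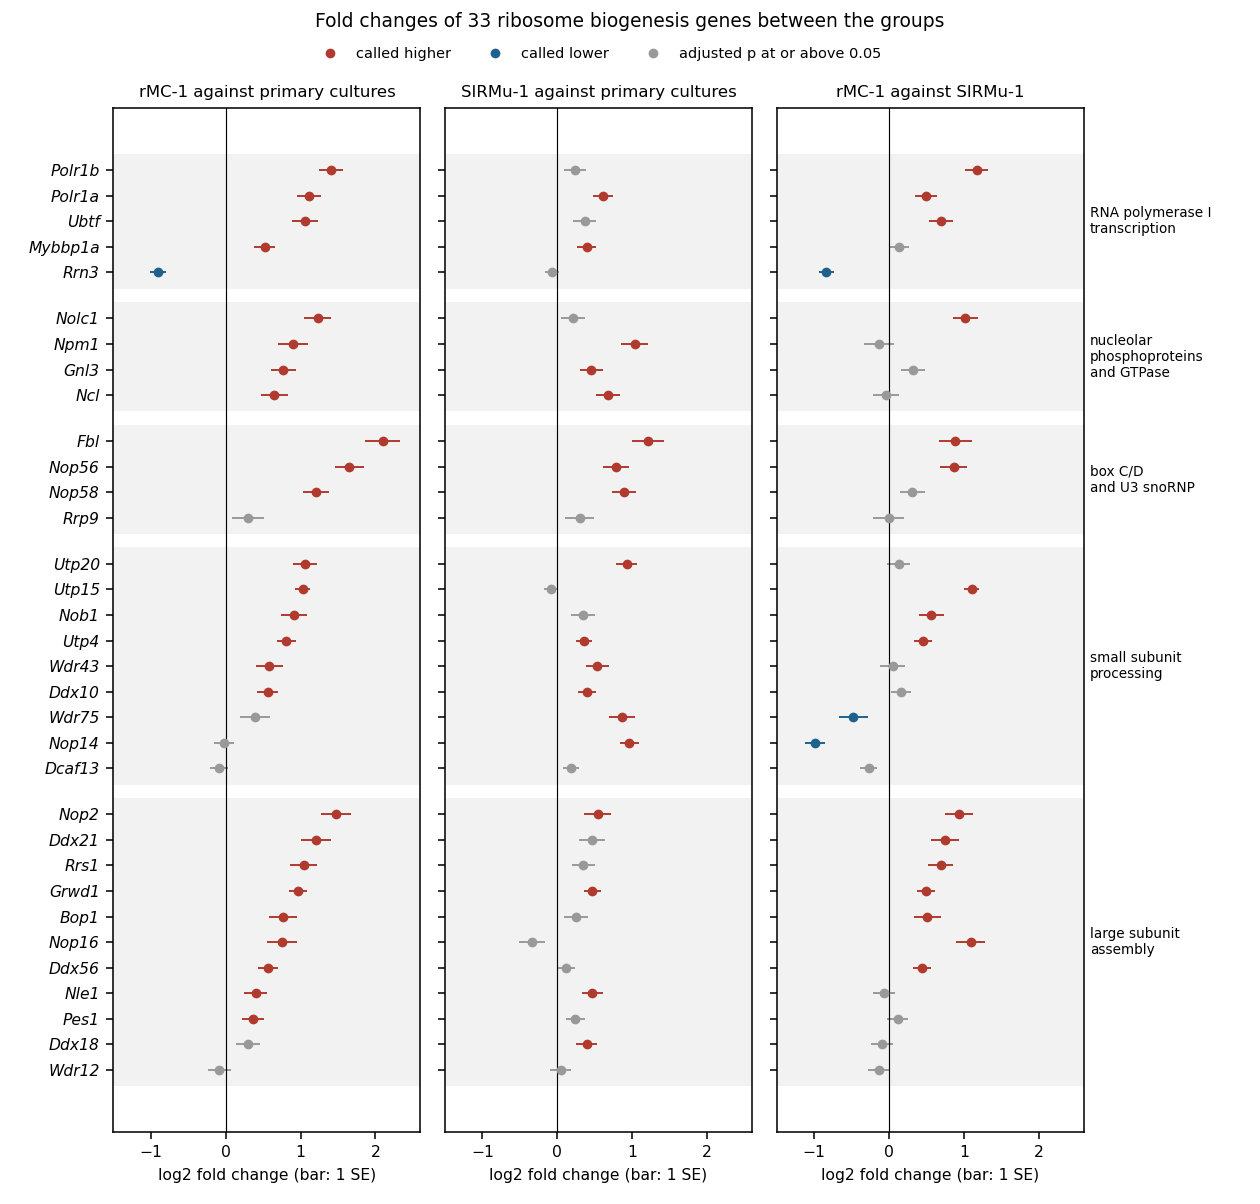
Log2 fold changes of the 33 tested genes with bars of 1 SE, for rMC-1 against primary cultures, SIRMu-1 against primary cultures and rMC-1 against SIRMu-1. Red marks genes called higher, blue genes called lower and grey genes that did not pass. Rrn3 is called lower in the first panel, and Nop14 and Wdr75 are called lower in rMC-1 than in SIRMu-1 in the third.

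Among the 9 tested genes of small subunit processing, 6 rose in rMC-1 (31.9% of all genes) and 6 in SIRMu-1 (21.7%) relative to primary cultures, but not the same 6. Utp20, Utp4, Wdr43 and Ddx10, which belong to or act with the small subunit processome around the nascent precursor, rose in both lines. Utp20 had 159, 98.8 and 157 CPM in rMC-1 and 132, 125.2, 118, 117 and 138 CPM in SIRMu-1, against 58.1, 65.7, 78.0 and 63.95 CPM in primary cultures, so that both lines lay above the primary cultures and overlapped each other. It rose by 1.05 ± 0.16 in rMC-1 and 0.92 ± 0.14 in SIRMu-1 (edgeR adjusted p = 0.000111 and 0.000399). Utp15, a processome subunit needed for rRNA transcription, was higher in rMC-1, at 61.3, 54.5 and 65.3 CPM in rMC-1 and 26.6, 26.9, 29.4, 27.7 and 29.8 CPM in SIRMu-1, against 25.8, 29.0, 32.6 and 31.2 CPM in primary cultures. All rMC-1 libraries lay above all others, with a log2 fold change of 1.03 ± 0.11 against primary cultures and 1.10 ± 0.10 against SIRMu-1 (edgeR adjusted p = 5.26e-06 and 3.07e-06). Nob1, the endonuclease that makes the last cut of small subunit rRNA, rose by 0.91 ± 0.17 in rMC-1 and did not pass in SIRMu-1 (0.34 ± 0.16, adjusted p = 0.0911).

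Nop14 and, less stably, Wdr75 showed the reverse order of the lines. Nop14, a processome protein whose yeast counterpart is needed for small subunit rRNA, had 69.8, 54.5 and 73.5 CPM in rMC-1 and 132, 117, 127, 126 and 151 CPM in SIRMu-1, against 65.2, 57.2, 66.6 and 78.8 CPM in primary cultures. Every SIRMu-1 library lay above every other library, and rMC-1 overlapped the primary cultures. The log2 fold change was 0.96 ± 0.12 in SIRMu-1 against primary cultures (edgeR adjusted p = 0.00012), -0.02 ± 0.14 in rMC-1 against primary cultures (adjusted p = 0.891) and -0.99 ± 0.14 in rMC-1 against SIRMu-1 (adjusted p = 7.53e-05). With libraries scaled by their totals alone, which moves the median of all genes to 0.32 in rMC-1 against primary cultures, the value in that comparison was 0.44 ± 0.18 (adjusted p = 0.0379). Wdr75, a processome subunit, averaged 64.5 ± 9.63 CPM in rMC-1 and 89.6 ± 15.2 CPM in SIRMu-1, against 49.1 ± 11.2 CPM in primary cultures (SD, n = 3, 5 and 4). Against primary cultures it stood at 0.39 ± 0.20 in rMC-1 (edgeR adjusted p = 0.0922), and it was called higher there without rMC-1 replicate 2 (0.59, adjusted p = 0.0305), SIRMu-1 replicate 5 (0.46, 0.0434) or primary replicate 1 (0.50, 0.0476), and with library totals (0.88, 0.000483). It rose by 0.87 ± 0.18 in SIRMu-1 and was lower in rMC-1 than in SIRMu-1 by a log2 difference of -0.47 ± 0.19 (edgeR adjusted p = 0.0471), a call that was lost when any 1 of 9 libraries was left out, namely every library of either line and primary replicate 2 (adjusted p up to 0.32). The Wdr75 call between the lines was also lost with library totals (-0.02, edgeR adjusted p = 0.927) and with RLE size factors (-0.45, 0.0595). It was lost too with no filter (-0.47, 0.0577) and with libraries of a shared code summed (-0.34, 0.304). Dcaf13, whose yeast counterpart Sof1 is a processome subunit, had 50.5, 37.6 and 46.5 CPM in rMC-1 and 49.9, 54.1, 55.6, 51.25 and 60.0 CPM in SIRMu-1, against 48.8, 42.3, 52.5 and 47.1 CPM in primary cultures. Its groups overlapped and it did not pass in any comparison (-0.09 ± 0.12 in rMC-1 and 0.18 ± 0.11 in SIRMu-1 against primary cultures), but was called higher in rMC-1 with library totals (0.39, adjusted p = 0.0204). Between the lines it stood at -0.27 ± 0.12 (adjusted p = 0.0573), and it was called lower in rMC-1 than in SIRMu-1 with upper quartile factors (-0.30, 0.0404), with the 1 CPM filter (-0.28, 0.0496) and without primary replicate 2 (-0.27, 0.0499).

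For large subunit assembly, 9 of 11 tested genes rose in rMC-1 (31.9% of all genes) and 4 in SIRMu-1 (21.7%) relative to primary cultures. Nop2, a methyltransferase of large subunit rRNA known as the proliferation antigen p120, had 92.9, 60.6 and 92.7 CPM in rMC-1 and 44.7, 34.1, 41.0, 44.4 and 50.8 CPM in SIRMu-1, against 25.9, 23.2, 32.8 and 36.5 CPM in primary cultures. The rMC-1 libraries lay above all others, and SIRMu-1 overlapped the primary cultures at its lowest library. It rose by 1.47 ± 0.20 in rMC-1 and 0.54 ± 0.18 in SIRMu-1 (edgeR adjusted p = 4.25e-05 and 0.0258), and the SIRMu-1 call was lost when any 1 of 5 libraries was left out (SIRMu-1 replicates 1, 4 and 5, and primary replicates 1 and 2; adjusted p up to 0.0782). Nop16, which joins early large subunit precursors in yeast, had 74.3, 59.9 and 81.0 CPM in rMC-1 and 37.0, 39.8, 30.8, 32.9 and 28.0 CPM in SIRMu-1, against 44.2, 30.1, 38.6 and 57.7 CPM in primary cultures. The rMC-1 libraries lay above all others. It rose by 0.75 ± 0.20 in rMC-1 against primary cultures and 1.09 ± 0.19 against SIRMu-1 (adjusted p = 0.00546 and 0.000383), and stood at -0.34 ± 0.18 in SIRMu-1 against primary cultures (adjusted p = 0.14), or -0.48 (adjusted p = 0.0359) without primary replicate 2.

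Calls in rMC-1 differed within the PeBoW complex, made of Pes1, Bop1 and Wdr12 and needed to process large subunit rRNA. Differences between its genes were not tested. Bop1 rose by 0.77 ± 0.19 in rMC-1 against primary cultures (edgeR adjusted p = 0.00297), with libraries of the 2 groups overlapping. Pes1 rose by 0.36 ± 0.14 (adjusted p = 0.0418), a call lost when any 1 of 7 libraries was left out. Wdr12 had 31.8, 21.0 and 31.8 CPM in rMC-1 and 31.1, 31.2, 29.9, 30.02 and 32.2 CPM in SIRMu-1, against 31.4, 23.7, 33.7 and 30.7 CPM in primary cultures, and all groups overlapped. Its log2 fold changes were -0.08 ± 0.16 in rMC-1 and 0.05 ± 0.14 in SIRMu-1 (adjusted p = 0.646 and 0.805). The value of Wdr12 in rMC-1 was 0.17 without rMC-1 replicate 2 and 0.39 with library totals (edgeR adjusted p = 0.262 and 0.0522). None of these 3 genes passed in SIRMu-1 against primary cultures (Bop1 0.25 ± 0.17, Pes1 0.24 ± 0.13).

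Of the other large subunit genes, the RNA helicase gene Ddx21, whose product also binds active rDNA, rose by 1.21 ± 0.20 in rMC-1 and stood at 0.46 ± 0.18 in SIRMu-1 (edgeR adjusted p = 0.052), although its SIRMu-1 libraries did not overlap the primary ones. Ddx21 was called higher in SIRMu-1 under 5 alternatives, with adjusted p of 0.0484 with library totals, 0.0473 with no filter, 0.0244 with 2 groups only, 0.0166 without rMC-1 replicate 2 and 0.0374 without primary replicate 3. Rrs1, which loads the 5S particle, rose by 1.04 ± 0.18 in rMC-1, and Grwd1, a histone-binding protein that also acts on ribosomal protein uL3, rose by 0.96 ± 0.13 in rMC-1 and 0.47 ± 0.11 in SIRMu-1. The helicase gene Ddx56 rose by 0.57 ± 0.13 in rMC-1. Nle1, a partner of the remodelling ATPase of pre-60S particles, rose by 0.40 ± 0.15 in rMC-1 and 0.47 ± 0.14 in SIRMu-1. The helicase gene Ddx18 passed in SIRMu-1 (0.39 ± 0.14, edgeR adjusted p = 0.0348) and not in rMC-1 (0.30 ± 0.15, adjusted p = 0.102). The SIRMu-1 call of Ddx18 was lost when any 1 of 9 libraries was left out (all but rMC-1 replicates 1 and 2 and SIRMu-1 replicate 3; adjusted p up to 0.0939), and without rMC-1 replicate 2 it was called higher in rMC-1 (0.56).

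Read over the 3 comparisons, the genes sorted into few classes. In both lines 15 genes rose relative to primary cultures, which was the class of 14.8% of all genes tested. Of these, 6 were also higher in rMC-1 than in SIRMu-1 (Polr1a, Fbl, Nop56, Utp4, Nop2 and Grwd1), and 9 did not differ between the lines beyond the threshold (Mybbp1a, Ncl, Npm1, Gnl3, Nop58, Utp20, Wdr43, Ddx10 and Nle1). Of these 9, Mybbp1a, Nop58 and Utp20 were called higher in rMC-1 than in SIRMu-1 without rMC-1 replicate 2 (edgeR adjusted p = 0.0104, 0.0332 and 0.0138), and Gnl3 and Nop58 without SIRMu-1 replicate 5 (0.00277 and 0.0244). Another 11 were called higher in rMC-1 without a call in SIRMu-1 (14.7% of all genes), and for 10 of them the lines differed in the direct comparison (Polr1b, Ubtf, Nolc1, Utp15, Nob1, Bop1, Nop16, Rrs1, Ddx21 and Ddx56). The last was Pes1. Of all genes tested, 30.5% were called higher and 32.7% lower in rMC-1 than in SIRMu-1. Shares of all genes by the 3 comparisons together were not counted, so these splits are not read as a trait of the set. Called higher in SIRMu-1 without a call in rMC-1 were 3 genes (Nop14, Wdr75 and Ddx18; 4.32% of all genes), and 3 were called in neither line (Rrp9, Dcaf13 and Wdr12; 19.5%). Rrn3 was called lower in rMC-1 without a call in SIRMu-1 (19.7%).

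Single libraries carried coordinated shifts of the set. In rMC-1, replicate 2 was the lowest of the 3 libraries for 33 of 33 genes, a position it held for 34.8% of all genes tested and for 95 of 108 other ribosome biogenesis genes. Its ratio to the mean of replicates 1 and 3 ran from 0.539 for Bop1 to 0.92 for Gnl3, with 0.574 for Fbl and 0.899 for Npm1. The division genes of the same library were near those of the other rMC-1 libraries (median fold 0.975), and Myc was at 1.22 times the mean of the other two. It was also the deepest rMC-1 library, with 38125630 counts in genes, and had the highest share of reads outside genes (30.3%). The part of depth or read assignment in the shift was not tested. Without replicate 2, 29 genes rose and 1 fell in rMC-1 against primary cultures (median log2 fold change 1.01), where 31.1% of all genes were called higher and 35% lower. In the same fit 19 were higher and 2 lower than in SIRMu-1, with a median of 0.52, where 30.6% of all genes were called higher and 26.2% lower.

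In SIRMu-1, replicate 2 had the lowest library median of both the set and the division genes, by a wider margin for the division genes. SIRMu-1 replicate 2 was the lowest of 5 libraries for 20 of 20 division genes, with a median of 1.52 on the log2 scale above the primary mean, while the other 4 libraries of the line had 3.39 to 3.88. For the ribosome biogenesis genes its median was 0.32, against 0.34 to 0.60 in the others, and it was the lowest library for 13 of 33 (27.9% of all genes tested). Replicate 5, at passage 20 and with both drugs, was the highest SIRMu-1 library for 26 of 33 genes (30.2% of all genes tested), while replicate 3, at passage 11 and with the same drugs, was the highest for 0 (11.2% of all genes). In the primary cultures, replicate 2 was the lowest library for 24 of 33 genes (28.9% of all genes). The library medians were 0.92, 0.53 and 0.93 in rMC-1 and 0.41, 0.32, 0.34, 0.40 and 0.60 in SIRMu-1, against 0.02, -0.22, 0.16 and 0.08 in primary cultures, all in replicate order.

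**Figure D3:**
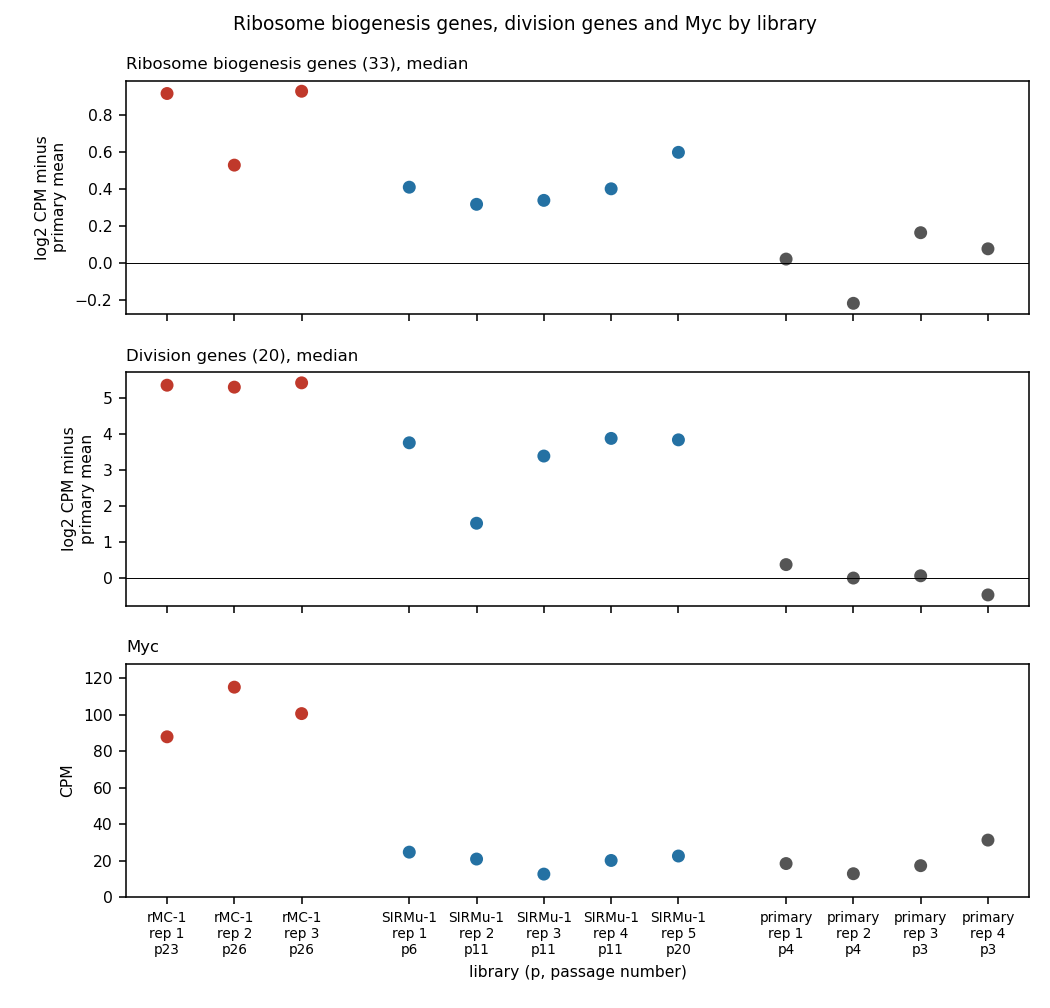
Median of the 33 ribosome biogenesis genes and of 20 division genes, as log2 CPM minus the mean of the primary cultures, and the CPM of Myc, in each library with its passage. rMC-1 replicate 2 has the lowest rMC-1 median of the ribosome biogenesis genes at 0.53 with Myc at 115 CPM, and SIRMu-1 replicate 2 has the lowest SIRMu-1 median of the division genes at 1.52.

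Myc was part of the reason for choosing the set, so its levels are given as a description. It had 88.0, 115 and 101 CPM in rMC-1 and 24.7, 20.9, 12.6, 20.1 and 22.6 CPM in SIRMu-1, against 18.4, 12.8, 17.3 and 31.3 CPM in primary cultures. The rMC-1 libraries lay above all others, and SIRMu-1 overlapped the primary cultures. The 20 division genes, which act in DNA replication and mitosis, all rose in rMC-1 (31.9% of all genes) and in SIRMu-1 (21.7%). Their median log2 fold changes against primary cultures were 5.30 in rMC-1 and 3.48 in SIRMu-1. Of the 9 other tested genes of the MYC and MAX network, 1 rose and 3 fell in rMC-1 against primary cultures (Max, Mxd4 and Mnt). In SIRMu-1 against primary cultures 1 rose and 3 fell (Mycl, Max and Mxd1). Of all genes, 31.9% were called higher and 38.9% lower in rMC-1, and 21.7% and 24.4% in SIRMu-1, so the falls are near these shares. The network gene that rose in both was Mxd3, a MAX partner expressed in dividing cells, with 5.44 in rMC-1 and 3.38 in SIRMu-1.

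Changes were seen with and without CACGTG in the promoter window. MYC sites of another sequence or outside the window were not searched, so genes without a match may have them. Against primary cultures the median log2 fold change in rMC-1 was 0.65 for the 10 tested genes with the motif and 0.91 for the 19 without, and in SIRMu-1 it was 0.46 with and 0.37 without. Between rMC-1 and SIRMu-1 the medians were 0.13 with and 0.50 without. In the printed stretches, Fbl holds the motif and had the largest change, Pes1 and Ddx18 hold it and had small ones, and Npm1 rose without it. The ranges in rMC-1 against primary cultures were 0.30 to 2.10 with the motif and -0.91 to 1.65 without.

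The wider pathway was read from a list of 108 other tested ribosome biogenesis genes (124 listed, 110 in the files). In rMC-1 against primary cultures 77 rose and 7 fell (31.9% and 38.9% of all genes), with a median log2 fold change of 0.76. In SIRMu-1 against primary cultures 42 rose and 0 fell (21.7% and 24.4% of all genes), with a median of 0.29. At an unadjusted p under 0.05, 50 of the 108 differed, a smaller share than the 53.4% of all genes. In rMC-1 against SIRMu-1, 62 were higher and 6 lower (30.5% and 32.7% of all genes), with a median of 0.40. By role, 7 of 8 further snoRNP genes, 33 of 43 large subunit genes, 22 of 36 small subunit genes, 8 of 11 rRNA exonuclease genes and 7 of 10 RNA polymerase I genes rose in rMC-1, and 4, 19, 10, 5 and 4 rose in SIRMu-1. The 10 of 36 small subunit genes in SIRMu-1 are near the 21.7% of all genes.

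The largest rises in rMC-1 were in subunits of the RNA exosome, which trims rRNA precursors from the 3′ end. Exosc8 had 55.6, 46.2 and 56.9 CPM in rMC-1 and 14.2, 11.0, 14.3, 15.6 and 13.8 CPM in SIRMu-1, against 4.38, 4.79, 6.80 and 6.48 CPM in primary cultures, and its 3 groups did not overlap. It rose by 3.24 ± 0.18 in rMC-1 and 1.30 ± 0.16 in SIRMu-1 (edgeR adjusted p = 8.93e-08 and 9.7e-05). Exosc2 rose by 2.96 ± 0.16 in rMC-1 and 0.96 ± 0.14 in SIRMu-1. Gar1, a core protein of the box H/ACA snoRNPs that guide pseudouridylation, rose by 2.21 ± 0.26 in rMC-1 and 1.28 ± 0.23 in SIRMu-1. Taf1d, a subunit of the selectivity factor SL1 of RNA polymerase I, had the largest change in SIRMu-1 at 1.39 ± 0.16, and rose by 1.54 ± 0.18 in rMC-1. The largest falls in rMC-1 were those of the kinase gene Riok3 (-1.47 ± 0.21), of Mak16 (-0.97 ± 0.24), a large subunit factor, and of the helicase gene Ddx24 (-0.76 ± 0.14), with edgeR adjusted p of 7.21e-05, 0.00329 and 0.000349.

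**Figure D4:**
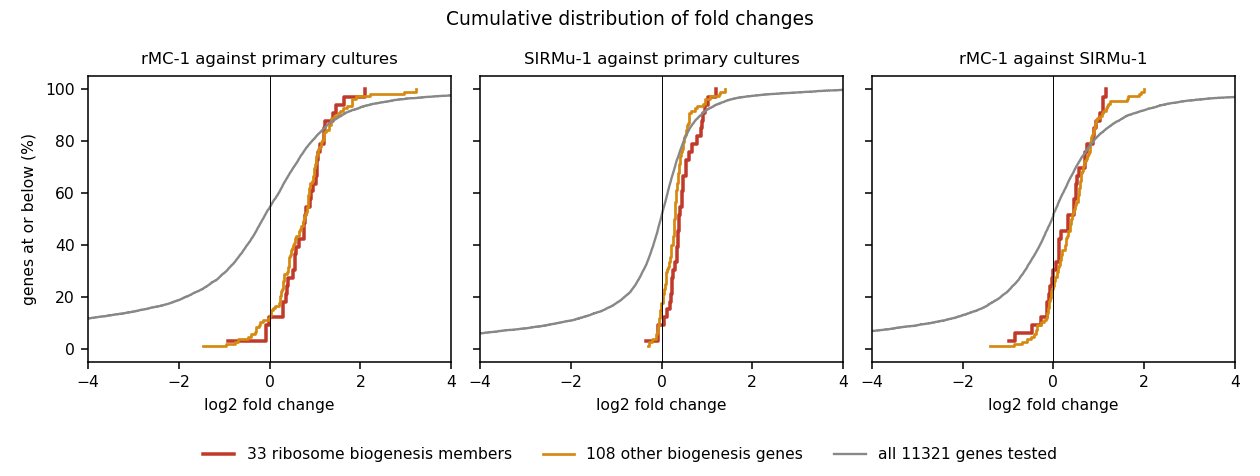
Share of genes at or below each log2 fold change, for the 33 ribosome biogenesis genes, 108 other ribosome biogenesis genes and all 11321 genes tested, in the 3 comparisons. The curves of the first 2 lists lie right of that of all genes over the lower part of the range and cross it near the top, with medians of 0.77 and 0.76, and -0.15 for all genes, in rMC-1 against primary cultures, and of 0.39 and 0.29, and -0.02 for all genes, in SIRMu-1 against primary cultures.

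The drugs could be examined within SIRMu-1, where replicates 3 and 5 were grown with gentamicin and amphotericin B and replicates 1, 2 and 4 without. Of the 33 genes, 0 passed edgeR's test, and 0 had an unadjusted p under 0.05. Of all 11636 genes in that fit, 0 (0%) passed and 433 (3.72%) had an unadjusted p under 0.05. DESeq2 called 4 of all genes, 3 higher and 1 lower. The median log2 difference of the set, with drugs minus without, was 0.13 (0 over all genes), and 27 of 33 genes had a positive sign. The share of all genes with a positive sign was not counted. With a replicate block the median of the set was -0.20, of the opposite sign. The median lay between -0.03, without replicate 5, and 0.23, without replicate 3, when a library was left out. The cultures with drugs were at passages 11 and 20 and those without at passages 6, 11 and 11, so passage differed too, and 2 libraries against 3 set the precision.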

How the data were processed

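RNA of 12 cultures was sequenced from polyadenylated RNA with a stranded kit. Build rn6, edgeR 3.18.1, STAR 2.5.3a and cutadapt 1.8.1 are named, per the submitters' processing notes; what each did, the annotation and whether counting used strand are not stated there, so genes overlapping on opposite strands are uncertain. The authors deposited whole-number read counts per gene for each library, not normalized. Reads outside genes (24.2% to 30.3% of a library) and reads with several mapping places (9.47% to 12.3%), listed in the same files, were left out of library sizes. The authors' log2 CPM table was not used. Libraries of a group differed by far more than sampling noise (chi-square per gene at least 23.3), so all 12 were kept as separate libraries. Preparation alone can exceed that noise, so the value does not show whether libraries shared a source.

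The tests used edgeR 4.0.16 in R 4.3.3, with filterByExpr, TMM factors and quasi-likelihood fits of 3 means to the 12 libraries, which leaves 9 residual degrees of freedom (4 means and 8 for the drugs). Benjamini-Hochberg adjustment ran over every tested gene, with calls at adjusted p below 0.05. Errors of log2 fold changes are SE. The code was checked on simulated counts. Alternatives were other scalings and filters, DESeq2 1.42.0, a replicate block, summed libraries, 2-group fits, a 2-fold minimum and leaving out each library. The members and all gene lists were chosen with earlier results of these data known, so lists are described by counts and medians without a test. Values in every library are given for Ncl, Npm1, Fbl, Myc and, in each role, the genes with the highest and lowest log2 fold change in either line; of the other biogenesis genes, the 3 largest called rises and falls per line are named. Promoters were taken from RefSeq on GRCr8, a build other than that of the files, and used for sequence alone.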

Additional observations from a re-analysis of the deposited data

Results flagged for a closer look

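Within each group of 4 or 5 libraries, each of the 33 tested genes of the set and Myc was screened for a library set apart from the others by Dixon's test at the 95% level. Of 68 gene and group combinations 7 were found, where chance gives about 1 in 20. All 7 were SIRMu-1 replicate 5 at the high end. Its level was 221.2 CPM for Mybbp1a (199.5 to 201.8 CPM in the other SIRMu-1 libraries), 796.5 CPM for Ncl (530.2 to 607.3), 111.4 CPM for Wdr43 (78.23 to 85.7), 66.42 CPM for Nob1 (44.38 to 49.54), 52.45 CPM for Bop1 (42.36 to 45.03), 103.3 CPM for Pes1 (74.9 to 80.34) and 107.6 CPM for Ddx21 (77.72 to 84.29). This culture was at passage 20, the highest of the group, and was grown with both drugs. The genes are not independent of each other, and the parts of passage, drugs and library were not tested.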

How the results depend on the processing

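Library totals alone moved the median of all genes to 0.32 in rMC-1 against primary cultures and 0.40 in rMC-1 against SIRMu-1, and the shares called higher and lower to 44.8% and 27.6%, and 46.2% and 20.5%. The medians of the 33 genes became 1.245 and 0.7531, and 1 other ribosome biogenesis gene was lower in each comparison. Signs that changed under library totals were 0.4428 (Nop14), 0.3878 (Dcaf13) and 0.3905 (Wdr12) in rMC-1 against primary cultures, and 0.4044 (Ncl), 0.3033 (Npm1), 0.4437 (Rrp9), 0.1736 (Dcaf13), 0.3164 (Wdr12), 0.3744 (Nle1) and 0.3499 (Ddx18) against SIRMu-1. With summed libraries of a shared code, 10 genes of the set and 19 others were higher in SIRMu-1 against primary cultures, 3 others were lower in rMC-1 against either group, and values near 0 changed sign (Nop14 0.06833, Wdr12 0.006953, Myc -0.03917, Ncl 0.06441 and Rrp9 0.09506). With a 2-fold minimum, 12 and 2 genes of the set were higher in rMC-1 and SIRMu-1 against primary cultures and 4 in rMC-1 against SIRMu-1, 0 were lower, and 32, 4 and 12 others were higher and 1 lower in rMC-1 against either group. One other gene was lower in SIRMu-1 with RLE factors and 2 with DESeq2. DESeq2 called 3 genes higher and 1 lower for the drugs over all genes. Signs also changed for Myc in SIRMu-1 with RLE (-0.01164), upper quartile factors (-0.009866), DESeq2 (-0.01187) and 2 groups only (-0.007503), for Nop14 with 2 groups only (0.03827) and for Rrp9 between the lines with RLE (0.02314) and DESeq2 (0.02291).

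Deviations of same-numbered libraries had correlations of -0.0626 to 0.0978 over 10 pairs, and those of differently numbered libraries -0.156 to 0.127 over 37 pairs. With so few libraries per group this cannot exclude a pairing by number. The labels pair no libraries, and the main fits used no pairing. A replicate block gave 25 higher and 1 lower, 16 and 0, and 18 and 3 genes of the set in the 3 comparisons. Of all genes, 32.4% and 38.4%, 21% and 22.9%, and 30.7% and 32.5% were higher and lower, in the same order. The block also gave a drug median of -0.1968, and log2 values of 0.01832 for Nop14 in rMC-1 against primary cultures and 0.0992 for Ncl and 0.02827 for Npm1 between the lines.

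Without single libraries, the higher genes of the set ran from 24 to 29 in rMC-1 against primary cultures, 12 to 20 in SIRMu-1 and 15 to 19 between the lines, the lower genes in SIRMu-1 from 0 to 1, other genes lower in rMC-1 against primary cultures from 3 to 10 and in SIRMu-1 from 0 to 2, and the medians from 0.7281 to 1.014 (rMC-1 against primary cultures) and 0.2479 to 0.5445 (rMC-1 against SIRMu-1). Ranges that crossed 0 were, against primary cultures, Nop14 (-0.09557 to 0.1783), Dcaf13 (-0.1459 to 0.104) and Wdr12 (-0.1848 to 0.1705) in rMC-1 and Wdr12 (-0.05456 to 0.107) and Myc (-0.1496 to 0.3154) in SIRMu-1. Between the lines they were Rrp9 (-0.08793 to 0.3203), Ncl (-0.08679 to 0.1581), Npm1 (-0.1907 to 0.06669), Wdr12 (-0.1416 to 0.1404), Nle1 (-0.1066 to 0.1437) and Ddx18 (-0.1457 to 0.1876). The causes were not tested. Filters on low counts changed no count of the set by more than 1.5 times.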
